A study of Mus musculus with 5 samples.

Results

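The AP-1 transcription factor genes Fos, Fosb, Fosl2, Jun, Junb and Jund were followed as ribosome-protected mRNA fragments (footprints) in mouse brain slices. They were taken by symbol, and all 6 were found among the 10329 genes of the deposited count table. The slices were hippocampal-cortical, from wild-type male C57BL/6N mice of postnatal day 28 to 35, and had recovered for 3 to 4 h after cutting. Homoharringtonine (HHT), a plant alkaloid that stops ribosomes in their first rounds of elongation while those already further along run off, was given at 20 µM for 0, 5, 10, 30 or 60 min. The vehicle was 0.05% DMSO. Each of the 5 times is 1 library from a pool of 10 slices of 2 to 3 mice, so no time has a replicate. No library of vehicle alone at 5 to 60 min is used here, so time in HHT cannot be told apart from vehicle or from further time after slicing.

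AP-1 is a family of dimers. Fos proteins bind DNA mainly in partnership with a Jun protein, whereas Jun proteins can also pair with one another, and both use a basic leucine zipper. In neurons Fos, Fosb, Jun and Junb belong to the immediate early genes, whose transcription starts within minutes of synaptic activity or injury and whose mRNAs and proteins are short-lived. Jund is the member made at a steadier level in resting cells. Slicing is itself a strong stimulus, and the genes were read after recovery from it.

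The 150 bases before each annotated gene start are shown because the cyclic AMP response element of Fos and the variant AP-1 site of Jun lie close to the start. They are from RefSeq on GRCm38.p6, written 5′ to 3′ in the direction of the gene. Capitals mark matches to TGACG (the core of the cyclic AMP response element, either strand), TATAAA (gene strand) or TGACATCA (the variant AP-1 site of the Jun promoter, either strand).
Fos, chr12:85473740-85473889, plus strand: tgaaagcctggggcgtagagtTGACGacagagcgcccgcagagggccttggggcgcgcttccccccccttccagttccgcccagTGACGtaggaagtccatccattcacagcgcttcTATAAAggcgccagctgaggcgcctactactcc
Fosb, chr7:19310046-19310195, minus strand: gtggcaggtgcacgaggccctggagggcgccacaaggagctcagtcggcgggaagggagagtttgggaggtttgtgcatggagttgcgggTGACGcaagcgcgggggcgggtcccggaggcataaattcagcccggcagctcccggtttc
Fosl2, chr5:32136322-32136471, plus strand: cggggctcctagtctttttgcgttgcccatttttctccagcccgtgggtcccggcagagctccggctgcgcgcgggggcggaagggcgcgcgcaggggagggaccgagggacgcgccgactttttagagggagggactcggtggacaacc
Jun, chr4:95052223-95052372, minus strand: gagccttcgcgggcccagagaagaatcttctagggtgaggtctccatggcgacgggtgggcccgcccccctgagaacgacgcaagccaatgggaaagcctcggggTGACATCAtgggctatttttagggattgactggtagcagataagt
Junb, chr8:84978749-84978898, minus strand: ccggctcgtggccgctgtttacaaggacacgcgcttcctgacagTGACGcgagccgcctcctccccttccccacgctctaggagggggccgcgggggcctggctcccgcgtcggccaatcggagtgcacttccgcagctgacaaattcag
Jund, chr8:70697589-70697738, plus strand: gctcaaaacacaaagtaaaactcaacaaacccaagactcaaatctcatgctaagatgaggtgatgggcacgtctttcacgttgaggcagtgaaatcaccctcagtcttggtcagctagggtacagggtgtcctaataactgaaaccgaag

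The search covered 300 bases, 250 before and 50 after each start. Fos held 2 matches to TGACG, and Fosb and Junb held 1 each, against 20.8% of 32851 such windows with at least 1. Jun held the single TGACATCA (3.62% of windows). TATAAA was found in the windows of Fos and Junb (8.32% of windows). It began at position -33 from the gene start in Fos. In Junb it began at position 0, the annotated start itself, and so outside the printed bases. Neither the palindromic AP-1 site TGANTCA (7.81% of windows) nor the CArG box that binds serum response factor (1.63%) was matched in any of the 6 windows. The known serum response element of Fos lies further upstream than the window reaches, so it was not covered by this search. The windows of Fosl2 and Jund held none of these motifs. The Jund stretch was 45.3% G and C, and the other 5 ranged from 58.0% (Jun) to 68.7% (Fosl2). These matches are a description of letters only.

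The counts cover the coding sequence (CDS) less 600 nt of its ends, which leaves short stretches in these genes. Fos (transcript NM_010234, chromosome 12, 85473890 to 85477274 in GRCm38) has a CDS of 1143 nt, of which 543 nt count. Fosb (NM_008036, chromosome 7, 19302696 to 19310118) has 1017 and 417 nt, and Fosl2 (NM_008037, chromosome 5, 32136472 to 32157840) 981 and 381 nt. Jun (NM_010591, chromosome 4, 95049036 to 95052222) has 1005 and 405 nt, and Junb (NM_008416, chromosome 8, 84976909 to 84978748) 1035 and 435 nt. Jund (NM_001286944, chromosome 8, 70697739 to 70700616) has the shortest, 882 and 282 nt. RefSeq holds 2 curated transcripts each for Fosb and Jund, and the table has 1 row per gene, so forms such as the truncated ΔFosB are not separated. No other annotated gene overlaps any of the 6.

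Library totals were 7155147, 2787749, 2022152, 1504748 and 1346175 counts in time order. Relative counting error therefore grows with time for a gene with a steady share of the counts. For each gene it follows the gene's own count, and Jund had 271 counts at 5 min and 490 at 60 min. Of the labelled tissue's markers, the count table held 12 of 13 for neurons, 9 of 10 for astrocytes, 7 of 10 for oligodendrocytes, 11 of 12 for microglia and 8 of 10 for vascular cells. None of these was listed at 0 TPM at 0 min. The count table lists only genes with at least 11 counts at 0 min, so this was fixed in advance and says nothing of the cells present. The summed signal of the neuron list was 118032 at 0 min and that of the microglia list 7285. Since the slices mix these cells, fewer cells of a type and less RNA per cell cannot be told apart.

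Levels are given on the deposited signal scale, which divides the count by the counted kilobases and by 1 factor per library. Levels of different genes are compared per length on this scale. For Jund the listed CDS is the shorter form, and no source used here gives how reads shared with the longer form were counted, so its level, rank and share against other genes carry that uncertainty. At 0 min all 6 genes were read well above the typical mRNA. Fos was highest at 6486 (95% counting interval 6274 to 6704) and ranked 186 of 10329 genes. Fosb followed at 4336 (4138 to 4540), Jun at 3864 (3675 to 4061), Jund at 3280 (3072 to 3499) and Junb at 2657 (2506 to 2815). Fosl2, the Fra-2 protein gene, was lowest at 953 (857 to 1056), at rank 1642. Counting intervals of neighbours in this order did not overlap at 0 min. They come from exact Poisson limits of single libraries, and like all intervals here they cover counting error only.

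Fos, the founding member and the usual marker of neurons that have recently fired, lost footprints in every later library. Its counts were 3522, 646, 344, 249 and 196 at 0, 5, 10, 30 and 60 min. In the 4 libraries with HHT the signal left, as percent of 0 min, was 19% (17.4 to 20.7), 11.8%, 8.02% and 5.72% (4.93 to 6.60). Relative to other mRNAs, after TMM scaling that sets the typical gene to no change, log2 folds against 0 min were -0.77, -1.17, -1.49 and -1.67. Each of these values was lower than the one before it.

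Fosb, which encodes FosB and the long-lived splice form ΔFosB of chronic stimulation, had the lowest values of the family between 5 and 30 min relative to its start. It had 1808, 162, 56, 61 and 98 counts in time order. The signal left was 9.28% (7.86 to 10.9), 3.74% (2.81 to 4.88), 3.83% and 5.57% (4.50 to 6.83). Its TMM-scaled log2 folds were -1.80, -2.80, -2.54 and -1.70. The lowest library was thus that at 10 min, and the 60 min value was higher than those at 10 and 30 min. The signal at 60 min was 1.49 times that at 10 min (1.06 to 2.11) and 1.46 times that at 30 min (1.05 to 2.04).

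Fosl2, the Fos relative with no strong activation domain, was the least read member, with 363, 72, 39, 43 and 30 counts. The signal left was 20.6% (15.7 to 26.5), 13.0%, 13.4% and then 8.49% (5.65 to 12.3). Log2 folds after TMM scaling were -0.65, -1.01, -0.73 and -1.08. With these counts the values at 10, 30 and 60 min had overlapping intervals.

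Jun, the main target of the JNK kinases, had 1565, 201, 166, 113 and 137 counts. Most of its loss lay in the first 5 min, as it did for the median over all genes (33.3% left at 5 min, 18.1% at 60 min). At 5 min 13.3% (11.4 to 15.4) of the Jun signal was left. The later libraries had 12.8%, 8.19% and 8.99% (7.50 to 10.7), and the intervals of the last pair overlapped. TMM-scaled log2 folds were -1.28, -1.05, -1.45 and -1.01, in no steady direction after 5 min.

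Junb, often a restraining partner of Jun, was closest of the 6 to the typical mRNA at 10, 30 and 60 min, while at 5 min Jund was closer. Its counts were 1156, 274, 172, 161 and 166, and the signal left was 24.6% (21.4 to 28.0), 18.0%, 15.8% and 14.8% (12.5 to 17.4). The TMM-scaled log2 folds of -0.40, -0.56, -0.51 and -0.30 were all below 0. The last had a counting interval of -0.55 to -0.07.

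Jund, the member least tied to acute stimuli, moved apart from the other 5. Its counts were 925, 271, 323, 409 and 490, so they were lowest at 5 min and higher in each later library, while library totals were lower each time. The signal was 3280, 996, 1383, 1645 and 1785 in time order. The signal left was 30.4% (26.4 to 34.8), 42.2% (37.0 to 47.9), 50.2% (44.5 to 56.4) and 54.4% (48.7 to 60.8). Relative to other mRNAs the log2 folds were -0.10 (-0.30 to 0.10), 0.66 (0.48 to 0.85), 1.15 (0.98 to 1.33) and 1.57 (1.42 to 1.74). Its rank by signal was 101 of 10329 genes at 60 min, against 436 at 0 min.

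**Figure D1:**
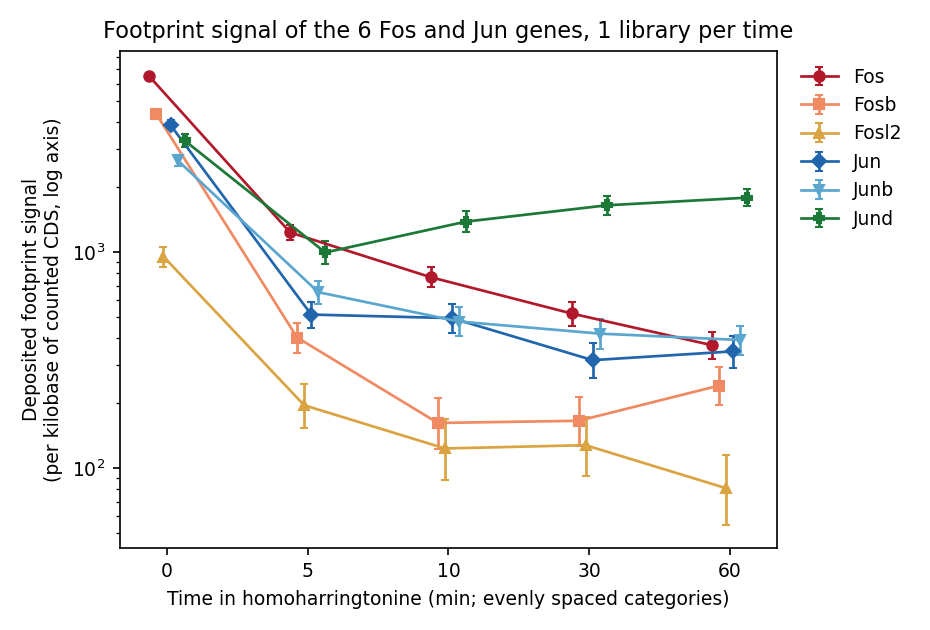
Deposited footprint signal per kilobase of counted CDS (log axis) against time in homoharringtonine in minutes, 1 library per time, with 95% Poisson counting intervals. Jund runs from 996 at 5 min to 1785 at 60 min, and the other 5 genes end between 80.9 and 392.

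The order of levels changed with time. At 5 min Fos (1233) was still highest, ahead of Jund (996). At 10, 30 and 60 min Jund was highest, and its interval stood apart from that of the next gene, Fos at 10 and 30 min and Junb at 60 min. At 60 min the intervals of Junb (392), Fos (371) and Jun (348) overlapped, and so did those of Jun and Fosb (241). Overlap of separate intervals does not test a difference between genes. Fosl2 was last in every library, at 80.9 (54.6 to 115) at 60 min, although its interval overlapped that of Fosb at 10 and 30 min. The second deposited table, in TPM, also put Jund first at 10, 30 and 60 min and Fos first at 0 and 5 min. It differed at 0 min in placing Junb (285 TPM) above Jund (233 TPM), and at 60 min in placing Fosb (185 TPM) above Jun (184 TPM).

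Within the family the balance therefore shifted towards Jund. The summed signal of the 6 genes was 21576, 3993, 3406, 3196 and 3218 in time order. Of this Jund made up 15.2%, 24.9%, 40.6%, 51.5% and 55.5%. The share of Fos was 30.1%, 30.9%, 22.5%, 16.3% and 11.5%. These shares do not depend on how libraries are scaled to one another.

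**Figure D2:**
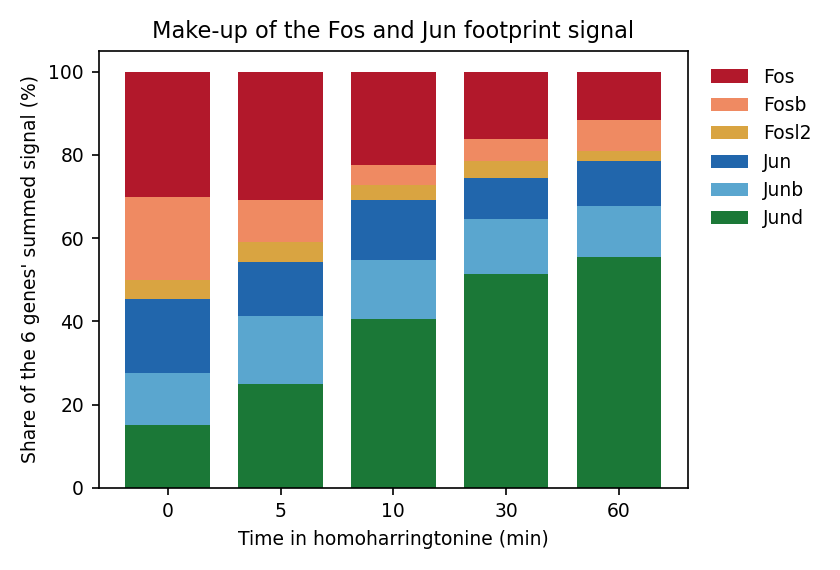
Share of the summed deposited signal of the 6 genes (percent) held by each gene at each time in homoharringtonine, 1 library per time. Jund holds 55.5% at 60 min, against 15.2% at 0 min, and Fos 11.5%, against 30.1%.

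The members have short coding sequences, so they were set beside the other 1750 genes with a CDS of 900 to 1200 nt. The median signal left of these genes was 22.7%, 21.3%, 21.2% and 17.5% in the 4 libraries with HHT, beside 33.3%, 26.8%, 22.3% and 18.1% over all genes, with quartiles of 12.8% and 24.5% at 60 min. Fos and Fosl2 lay inside the quartiles of 17.6% and 30.4% at 5 min, and below the lower quartile at the later 3 times. Fosb and Jun lay below it at all 4 times. Junb was within the quartiles at 5, 10 and 60 min and just under the lower one, 16.2%, at 30 min. Jund lay within the quartiles at 5 min and above the upper one afterwards, higher than 98.1% of these genes at 60 min. Its CDS is just below 900 nt; among genes of 800 to 1200 nt, a range added after the data were seen, it was higher than 97.9%.

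**Figure D3:**
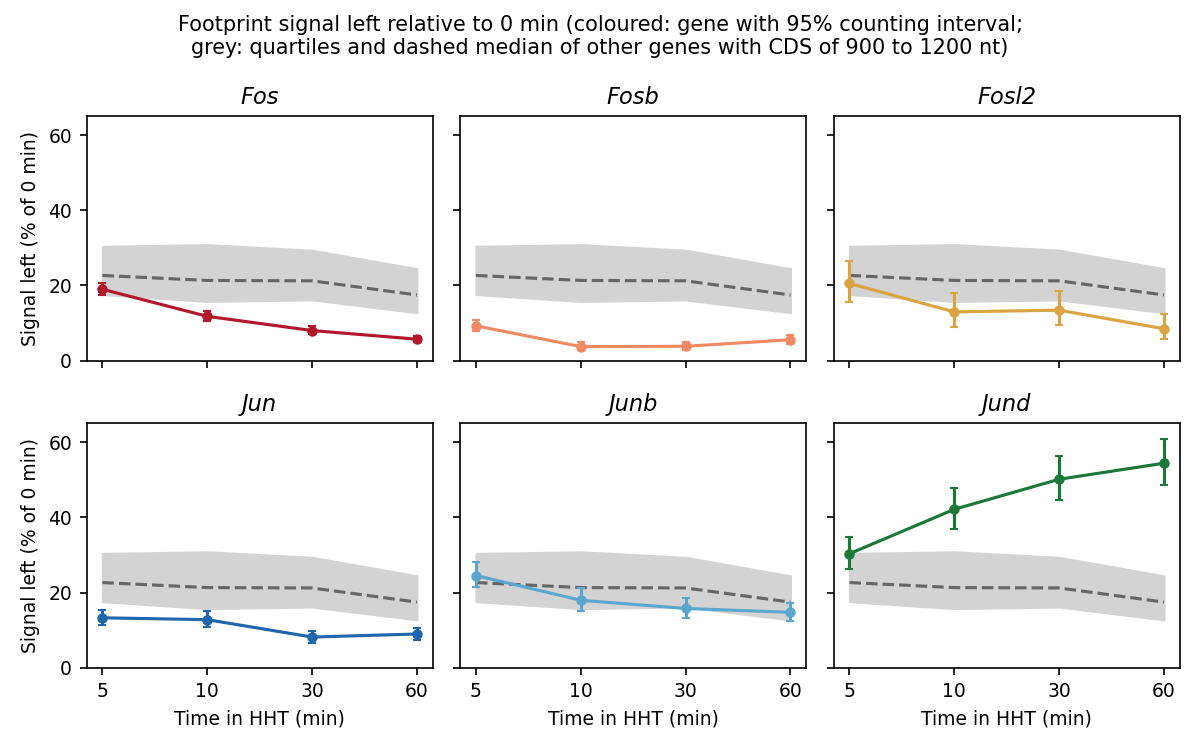
Deposited signal left at 5, 10, 30 and 60 min in homoharringtonine as percent of 0 min, with 95% counting intervals; the grey band and dashed line are the quartiles and median of the 1750 other genes with a CDS of 900 to 1200 nt. Jund leaves the band upwards to 54.4% at 60 min, and Fosb lies below it throughout.

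The steps from one library to the next show when each gene moved. Over the 7632 genes whose 2 libraries summed to 100 counts or more, the median signal at 5 min was 0.348 of that at 0 min. All 6 members lay below this median, from 0.0928 (Fosb) and 0.133 (Jun) to 0.246 (Junb) and 0.304 (Jund). That median covers genes of every length. Against the 5 min median of 22.7% for other genes with a CDS of 900 to 1200 nt, Junb and Jund lay above. Fos, Fosb, Fosl2 and Jun lay below it. Of the 7632 genes, 7597 had a higher ratio than Fosb. Between 5 and 10 min the median step was 0.825, and Fosb again had one of the lowest, 0.403 (0.292 to 0.549), while Jund had 1.39 (1.18 to 1.64). From 30 to 60 min the median was 0.814 with quartiles of 0.737 and 0.900. In that last step Fosb had 1.46, with 13 of 4543 genes higher, Jun 1.10 (0.850 to 1.42) and Jund 1.09 (0.950 to 1.24). Fos had 0.713 (0.588 to 0.863).

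Jund had 1.79 times the signal at 60 min that it had at 5 min (1.54 to 2.09), whereas the median over 5277 genes was 0.501. Of those genes 21 had a higher ratio than Jund. A signal higher in each library than in the one before, from 5 to 60 min, was found in 30 of the 5277 genes (0.569%), and Jund was among them. All ratios between libraries take the deposited factors as given.

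**Figure D4:**
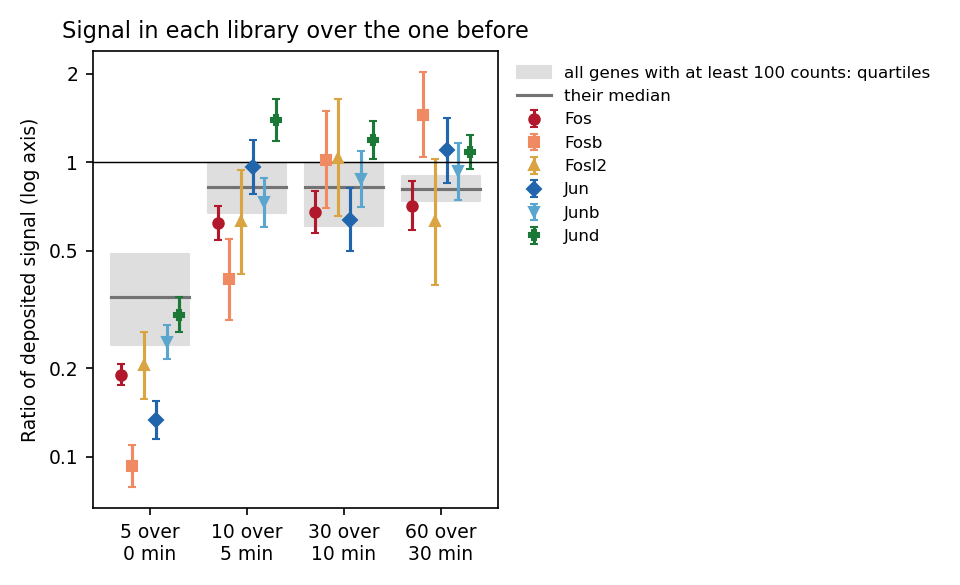
Ratio of the deposited signal in each library to the one before (log axis), with 95% counting intervals; grey bands and lines are the quartiles and median over all genes whose 2 libraries summed to 100 counts or more (4543 to 7632 genes). Jund is above 1 in the last 3 steps, and Fosb is lowest in the first 2 and highest in the last.

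Ratios of 1 member to another within a library need no scaling between libraries. All 15 pairs were set against their ratio at 0 min at each time, and 13, 11, 13 and 11 of the 15 intervals excluded 1 at 5, 10, 30 and 60 min. The 15 pairs share the same 6 genes, and pairs of other genes were not counted. These counts therefore have no background, and do not show that the members differ more than other genes do. The intervals compare single libraries, so no p-value is given. The Fos signal was 0.208 times that of Jund at 60 min, against 1.98 times at 0 min, a change of 0.105 (0.087 to 0.126). The change at 60 min of Jun over Jund was 0.165 (0.133 to 0.204) and of Junb over Jund 0.271 (0.221 to 0.331). The pair of Fos and Fosb differed at 10 min, where the ratio of Fos to Fosb was 3.15 times its 0 min value (2.36 to 4.28). At 60 min that change was 1.03 (0.796 to 1.33), an interval that includes 1. Fos over Jun had a change of 1.43 (1.20 to 1.7) at 5 min, 0.921 (0.755 to 1.13) at 10 min and 0.636 (0.504 to 0.803) at 60 min, so the direction at 5 min was opposite to that at 60 min.

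A test was possible for the slope over all 5 libraries on log2(minutes + 1), fitted across 9444 genes by edgeR's quasi-likelihood test with Benjamini-Hochberg adjustment. With no replicates, its error is the scatter of single libraries around a straight line. With the deposited library factors, 5 of the 6 members fell, where 94.2% of all genes tested did. The slopes, in log2 units per unit of log2(minutes + 1), were -0.69 for Fos (SE 0.0736, adjusted p = 0.000169) and -0.75 for Fosb (SE 0.115, adjusted p = 0.000191). Jun had -0.60 (SE 0.0872, adjusted p = 0.000175), Fosl2 -0.59 (SE 0.087, adjusted p = 0.000178) and Junb -0.47 (SE 0.0769, adjusted p = 0.000228). The median over all genes was -0.41. The slope of Jund, -0.13 (SE 0.0839), missed the threshold (adjusted p = 0.134), with 9262 of 9444 genes lower. With time in plain minutes the 5 calls ended, with adjusted p from 0.0656 to 0.118, in a fit that called 0.254% of genes lower. DESeq2's Wald test with the deposited factors called the same 5 members lower, where it called 92.1% of genes.

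Relative to other mRNAs none of the 6 passed the threshold, and 1 of all genes tested (0.0106%) was called lower and 0 higher. Of the members 4 had a falling slope and 1, Jund, a rising slope with an unadjusted p under 0.05, as had 518 (falling) and 637 (rising) of all 9444 genes. The TMM-scaled slopes were -0.29 for Fos (SE 0.0613, adjusted p = 0.118), -0.34 for Fosb (SE 0.103, adjusted p = 0.224), -0.19 for Jun (adjusted p = 0.312) and -0.17 for Fosl2 (adjusted p = 0.288). Junb had -0.06 (adjusted p = 0.735) and Jund 0.28 (SE 0.0746, adjusted p = 0.184). DESeq2's Wald test called Fos lower (adjusted p = 0.0143), where it called 0.392% of genes lower, and no member higher, where it called 0.381%.

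The 0 min library decides how Jund is read. Without it, over the 4 HHT libraries from 5 to 60 min, the Jund slope was called higher at 0.49 relative to other mRNAs (SE 0.0835, adjusted p = 0.00653), in a fit that called 5.10% of 8631 genes higher. That fit called 10.1% of genes lower and no member. With the deposited factors it was 0.23 (SE 0.0902, adjusted p = 0.0281), and Jund was then 1 of 46 genes called higher (0.533%). In that same fit Fos (-0.50), Fosl2 (-0.31), Jun (-0.21) and Junb (-0.21) fell, where 47.7% of genes did, and the Fosb slope of -0.21 lost its call (adjusted p = 0.0716). Without the 60 min library Jund was called lower with the deposited factors (slope -0.22, adjusted p = 0.0495). The share of all genes called in that fit is not given here, so this call has no background. With all 5 libraries 94.2% of genes were called lower on that scaling.

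**Figure D5:**
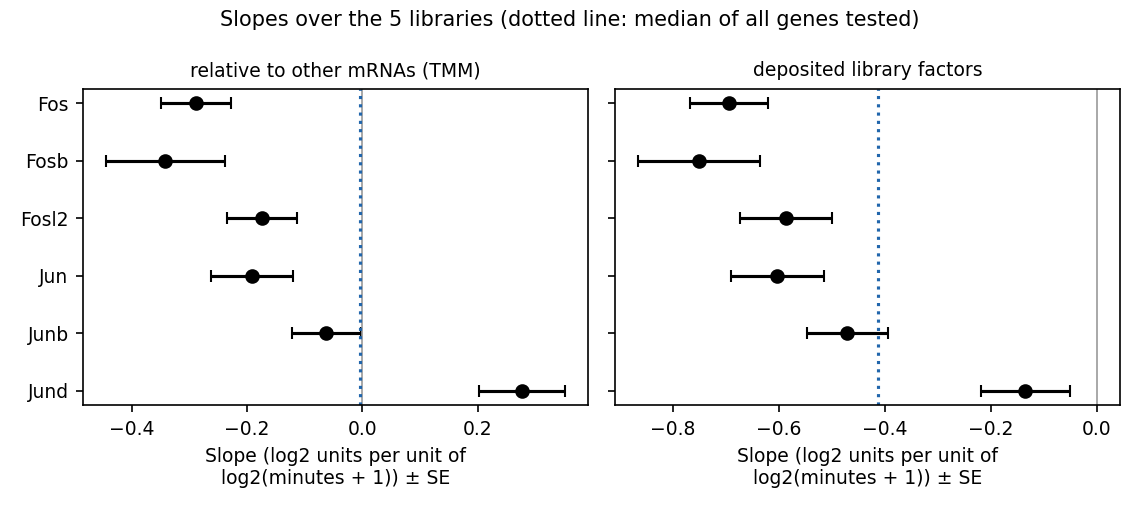
Slope of each gene over the 5 libraries, in log2 units per unit of log2(minutes + 1), with its standard error, relative to other mRNAs (left) and with the deposited library factors (right); dotted lines are the medians of all genes tested. Jund has the highest slope of the 6 on both scales, 0.28 and -0.13.

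At 60 min Fos, Fosb, Fosl2 and Jun were at least 2-fold lower than at 0 min after TMM scaling, as were 4.96% of 7424 genes whose 2 libraries summed to 100 counts or more. Jund was at least 2-fold higher, as were 4.57%. The same limit at 5 min was passed downwards by Fosb and Jun, where 5.37% of genes did, and upwards by no member (7.15% of genes). At 10 min Fos, Fosb, Fosl2 and Jun were past it downwards (5.64% of genes) and no member upwards (13.2%). At 30 min Fos, Fosb and Jun were lower (4.37% of genes) and Jund higher (3.96%). These folds share the 0 min library, so they are not independent of one another. Fosl2 and Jun lay close to that limit, at -1.08 and -1.01. With the deposited factors in place of TMM all 6 folds at 60 min were negative, from -0.87 (Jund) to -4.14 (Fosb).

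Genes with the most similar time courses were found by the distance between the 4 log2 ratios to 0 min, over 6921 genes with at least 100 counts at 0 min and 10 at 60 min. For Fos they were Ezr, the membrane-cytoskeleton linker ezrin (distance 0.182), Ccdc174 (0.229) and Ndrg1 (0.313). For Jun they were Tmbim1 (0.274), Steap3 (0.340) and Maf1, a repressor of RNA polymerase III (0.377). Junb lay nearest to Csnk2a1, a casein kinase 2 subunit (0.054), Rbm45 (0.107) and Hnrnpl (0.114), and Fosl2 to Gabpa, an ETS family factor (0.044), Dazap1 (0.207) and Ephx2 (0.221). Jund lay nearest to Yrdc (0.302), with 159, 43, 57, 59 and 91 counts, Serpinf1 (0.338) and Coq2, a coenzyme Q synthesis enzyme (0.344).

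Fosb had no near neighbour: its closest were C1qb, a complement C1q chain of microglia (0.880), the protease Ctss (1.02) and Mpeg1 (1.04), with 10, 19 and 15 counts at 60 min, in that order. Microglia markers as a whole had a median signal left of 5.16% at 60 min, beside 5.57% for Fosb. Fos was about as close with 5.72%, and the median of oligodendrocyte markers was 6.54%. At 5, 10 and 30 min the microglia median was 9.48%, 7.59% and 5.50%, beside 9.28%, 3.74% and 3.83% for Fosb. The summed signal of the microglia markers was 7285, 904, 451, 346 and 382 in time order. Their part in the Fosb values was not tested. Among the members themselves Fos and Jun were nearest (0.841), and Fosb and Jund farthest apart (6.30).

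The list of AP-1 dimer partners and other basic leucine zipper genes, not all of them partners, was read mostly at lower counts. Of 31 listed, 18 were in the table, and with the deposited factors 17 of 18 fell and 0 rose, close to the 94.2% of all genes tested that fell in this fit. Their median signal left at 60 min was 16.6%, beside 18.1% over all 10329 genes. Creb1, which binds the cyclic AMP response element, had 83 counts at 60 min, against 185 at 0 min, or 46.1% left (slope -0.18, adjusted p = 0.0856), and Nfe2l1 had 33.6%. The lowest were Nfe2l2, the oxidative stress factor Nrf2, with 8.56%, and Nfil3 with 9.18%. Fosl1, the Fos family gene outside the 6, had 45, 20, 18, 13 and 15 counts.

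All 25 genes listed as acting upstream of Fos transcription were in the table. With the deposited factors 25 fell (94.2% of all genes), with a median of 18.0% left at 60 min. Rps6ka4, the MSK2 kinase, and Elk1, a partner of serum response factor, kept 38.4% and 34.2%. The MAP kinase kinases Map2k1 and Map2k2 kept 10.9% and 11.6%. In the JNK and p38 cascade, 21 of 22 genes fell (94.2% of all genes) and the median was 17.3%. Mapk8ip1, the JNK scaffold JIP1, had 47.7% left and missed the threshold (slope -0.16, adjusted p = 0.0525), and Map3k9 had 39.7%. Map3k1 and Map2k3 were lowest, with 7.67% and 7.61%, on 10 and 6 counts at 60 min.

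Of the genes listed for the turnover of Fos and Jun proteins, 12 of 14 were in the table, 11 were tested and 10 fell (94.2% of all genes), with a median of 18.9% left. Rfwd2, the ubiquitin ligase COP1, had 43.1% left (slope -0.18, adjusted p = 0.083) and Gsk3a 31.5%. Gsk3b had 11.2% and Ddb1 12.5%.

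Reported AP-1 target genes had 16 of 23 in the table, of which 14 fell (94.2% of all genes), with a median of 18.7% left. Their range was wide. Vegfa, the vascular growth factor, had 58.2% left (slope -0.11, adjusted p = 0.201), and Penk, the enkephalin precursor, 47.3% (slope -0.15, adjusted p = 0.121). Plau, the urokinase gene, had 7 counts at 60 min, against 365 at 0 min, or 1.97% left, and Hmox1, heme oxygenase 1, had 2 counts, against 122. The TMM-scaled log2 fold of Hmox1 was -2.95 (-6.50 to -1.55).

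The other immediate early genes had the lowest median signal left at 60 min of the 6 pathway lists, though astrocyte (10.9%), oligodendrocyte (6.54%) and microglia markers were lower still. All 27 in the table, of 34 listed, fell with the deposited factors, where 94.2% of all genes did. Their median signal left was 25.4%, 18.4%, 15.5% and 12.6% in time order, against the medians over all genes given above. Among those with at least 50 counts at 0 min, Zfp36, an mRNA decay factor, and Csrnp1 were lowest with 3.79% and 5.43%. Ier2, below that limit with 42 counts at 0 min and 2 at 60 min, had 4.89%. Dusp5 and Arc were highest with 36.0% and 34.7%. Egr1, with 7042, 1364, 936, 1019 and 1032 counts, kept 15.1%, between Jun and Jund and close to Junb. Earlier results on these data, which guided the choice of lists, had already shown immediate early genes below the typical mRNA, so this is no independent evidence.

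Relative to other mRNAs, 0 of the 119 list genes tested passed the threshold, up or down, by edgeR's quasi-likelihood test. At an unadjusted p under 0.05, 18 had a falling and 11 a rising slope, beside 518 and 637 of all 9444 genes. DESeq2's Wald test called 4 lower and 0 higher, beside 0.392% and 0.381% of all genes.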

How the data were processed

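Footprints came from RNase A and T1 digestion and monosome fractions, read at 75 bp, per the labels' protocols. The submitters' processing notes name the build mm10 and, with no roles, SAMtools 0.0.19, TopHat2 2.0.9, Bowtie2 2.1.0, Trimmomatic 0.32 and cutadapt 1.7.1. The authors deposited expected counts (RSEM, going by the table's name), whole numbers as listed, for 10329 genes, with at least 11 counts at 0 min. The deposited signal equals the count per kilobase of CDS less 600 nt, divided by 1 factor per library (1, 0.965, 0.828, 0.882 and 0.973). The deposited ratio divides it by its 0 min value. A second deposited table holds a score, TPM rounded to whole numbers, for 18527 genes. The 3 deposited rate columns were not used.

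Slopes were fitted on genes with a mean of at least 10 counts by edgeR 4.0.16 in R 4.3.3, with 3 residual degrees of freedom, and tested on simulated data. Alternatives used DESeq2 1.42.0 and limma 3.58.1, and scaling to the summed TPM of 6 mitochondrially encoded genes. Fold intervals are exact 95% conditional binomial. Folds used a prior count of 2. Members and gene lists were chosen with earlier results of these data known. Named were all members, the 2 highest and 2 lowest log2 folds at 60 min of each list (at least 50 counts at 0 min), and the 3 nearest genes; Fosl1 and Egr1 were added after their values were seen.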

Additional observations from a re-analysis of the deposited data

How the results depend on the processing

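No paired analysis was possible because each time has 1 library and the labels give no replicate number shared between groups. For the slopes relative to other mRNAs, 55 of 60 alternatives for single members kept direction and side of the threshold. DESeq2 called 1 member lower, Fos, where it called 0.392% of all genes lower. When each library was left out, 0 to 1 members were called higher and 0 lower. Jund was the member called, without the 0 min library, where 5.1% of all genes were called higher and 10.1% lower. Without the 0 min library the slopes of Fosb (0.051), Jun (0.047) and Junb (0.050) turned positive with no call; over the libraries left out in turn their lowest values were -0.57, -0.29 and -0.11. With the deposited factors, 46 of 54 alternatives kept direction and side. On minutes 0 members were called lower, where 0.254% of all genes were. Leaving out each library gave 4 to 6 members lower and 0 to 1 higher. Without the 0 min library 47.7% of all genes were called lower and 0.533% higher. For the fits without another library, on either scaling, the share of all genes called is not given here. Those ranges of calls are therefore not set against a background. The Jund slope ranged from -0.22 without the 60 min library to 0.23 without the 0 min library. Scaling to mitochondrially encoded proteins, whose factors differed from the deposited ones by 3.94%, -0.05%, -1.21% and -0.29%, changed no call of a member. Factors this close leave little room for a call to change, so this setting, counted among the 54 alternatives, is a weak check. The median log2 fold of the 6 members at 60 min was -3.46 with the deposited factors, and the Jund folds at 10, 30 and 60 min reversed to -1.24, -0.99 and -0.87; TMM removes the loss common to all mRNAs by construction. Pathway list genes called relative to other mRNAs were 4 lower with DESeq2 (0.392% of all genes). When each library was left out they were 0 to 11 lower and 0 to 10 higher. Both highest counts came without the 0 min library, where 10.1% and 5.1% of all genes were called. With the deposited factors 1 was lower on minutes (0.254% of all genes), and 58 to 117 lower and 0 to 1 higher with a library left out. The 58 came without the 0 min library, where 47.7% of all genes were called lower. The cause of the other changes was not tested. Fosl2, with 30 counts at 60 min, was the member most limited by depth.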
